A study of Mus musculus with 8 samples.

Results

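The genes of the proteasome were examined in 8 ChIP-seq peak lists. The cells were E14Tg2a, a line of mouse embryonic stem cells, used between passages 37 and 40. Members were all protein-coding genes of the GENCODE M21 annotation whose names start with Psma, Psmb, Psmc, Psmd, Psme, Psmf or Psmg. The rule found 50 genes of 21911, and each of them is accounted for here. Of these, 49 encode proteasome subunits, activators, inhibitors or assembly chaperones. The remaining gene, Psmc3ip, shares the first letters only and encodes a partner of the meiotic recombinases, so it was kept apart. Pluripotent cells (ESCs) were grown with leukemia inhibitory factor (LIF). Neuronal cells (NCs) were LIF-free monolayers given 1 µM retinoic acid (RA) for 48 h. ChIP-seq sequences the DNA recovered with an antibody, and a peak is a place where the recovered fragments pile up. The antibodies were against FGFR1, a growth factor receptor at the cell surface that can also enter the nucleus, against RXR and Nur77, which are nuclear receptors, and against H3.3, a histone variant placed outside DNA replication. FGFR1, RXR and Nur77 were examined in both states, H3.3 in RA only. FGFR1 in RA had 2 libraries, called replicates 1 and 2 here, the second titled as a repeat experiment, and each of the other 6 groups had 1 library. Each chromatin preparation came from pooled plates of a single cell line. No control chromatin is named for the peak calls.

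The proteasome is the barrel-shaped protease that degrades proteins marked with ubiquitin. Its 20S core is a stack of outer rings of alpha subunits, which gate the channel, and inner rings of beta subunits, some of which carry the proteolytic sites. The 19S cap has a ring of ATPases that unfold substrates and a lid and base of non-ATPase subunits that bind and remove ubiquitin. Embryonic stem cells are known for high proteasome activity. The subunits are needed in fixed proportions and their genes lie scattered over the genome, so they are usually regarded as a co-regulated set. The best known shared regulator is the transcription factor encoded by Nfe2l1, which acts on antioxidant response elements. That factor is not the nuclear respiratory factor whose motif is called NRF1 here.

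A gene was counted as bound where a peak overlapped by at least 20 bp the stretch within 1000 bp of any of its transcript starts. Stretches around the main start of 6 members are shown for reference. The 8 summits of Psmb2 fall inside its stretch, whereas some peaks of the other genes lie outside theirs, among them the Psmc6 peak and the FGFR1 summits of Psmd5. Psmb2, Psmd12, Psme3 and Psme4 were the members with a peak in all 8 libraries. Psmd5 held the strongest FGFR1 peak of any member in RA replicate 2 and in LIF, and Psmc6 was bound by FGFR1 in LIF only. Each line runs 5′ to 3′ on the gene's own strand, from 60 bp upstream through the first 30 bp of the transcript, in build mm10. Capitals mark matches, on either strand, to any of the motif words of at least 8 letters that were searched (CRE, NRF1, ETS, YY1, ARE and NBRE, spelled out further on). Psmb2 lies at chr4:126677570-126677659 (plus strand), Psmd12 at chr11:107479424-107479513 (plus), Psme3 at chr11:101316153-101316242 (plus), Psme4 at chr11:30771666-30771755 (plus), Psmd5 at chr2:34870933-34871022 (minus) and Psmc6 at chr14:45329728-45329817 (plus).
Psmb2: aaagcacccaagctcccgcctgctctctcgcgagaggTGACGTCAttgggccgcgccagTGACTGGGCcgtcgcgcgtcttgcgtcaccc
Psmd12: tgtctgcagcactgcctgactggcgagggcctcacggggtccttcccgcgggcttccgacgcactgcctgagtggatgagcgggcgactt
Psme3: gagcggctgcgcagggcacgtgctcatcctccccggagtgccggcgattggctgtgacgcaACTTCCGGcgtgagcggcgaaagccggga
Psme4: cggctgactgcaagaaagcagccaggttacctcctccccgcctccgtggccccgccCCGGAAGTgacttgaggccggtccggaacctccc
Psmd5: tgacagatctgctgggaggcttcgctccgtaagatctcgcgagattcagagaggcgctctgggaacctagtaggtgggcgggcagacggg
Psmc6: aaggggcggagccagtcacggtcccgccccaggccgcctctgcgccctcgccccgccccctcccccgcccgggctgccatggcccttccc

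In Psmb2 the capitals are a CRE word that begins 23 bp before the start and an ARE word that begins 1 bp before it. All 8 summits at this gene, that is the highest points of its strongest peaks, lay inside the printed stretch, from 9 bp before the start to 15 bp after it, a span of 24 bp. In Psme3 and Psme4 the capitals are ETS words at the start itself, beginning 1 bp after it and 4 bp before it. Psmd12 also had an ETS word, which begins 26 bp after the start and runs past the end of the line. The summits of the 8 libraries spread further at these 3 genes, over 206 bp at Psmd12, 630 bp at Psme3 and 636 bp at Psme4. Psmd5 and Psmc6 had no such word in the stretch shown.

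The lists held 10634 to 46137 peaks. Depth is not given with them and was inferred from the fold and −log10 p of each peak as a background density, which ranged from 1.27 fragments per kb for H3.3 to 7.09 for RXR in LIF. The RA libraries had 1.54 and 2.50 times the LIF density for FGFR1 (replicates 1 and 2), 0.264 times for RXR and 0.767 times for Nur77. Replicate 2 stood apart from the other libraries, with a median peak width of 311 bp against 89 bp in replicate 1. A member with no listed peak may still have been occupied below the p limit of 1e-05.

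FGFR1 was listed at more proteasome genes in RA than in LIF. In LIF 17 of 50 members (34%) had a FGFR1 peak, where 17% of all protein-coding genes had one. In RA there were 36 (72%) in replicate 1 and 43 (86%) in replicate 2, against 50.8% and 49.6% of all genes. The mean for RA was 39.5 ± 4.95 members (SD, n = 2), 22.5 above LIF, and the share of all genes also differed, from 17% in LIF to a mean of 50.2%. This count moved with the length of the list in replicate 1. When each library was limited to its 10634 strongest peaks, 15 members were bound in LIF, 15 in replicate 1 and 41 in replicate 2, against 15.5%, 18.1% and 43.1% of all genes. LIF and replicate 1 then shared 6 members, a count that was not made over all genes. The larger number in RA thus stood on replicate 2 alone at an equal number of peaks, and no test between the states was possible with 1 LIF library.

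RXR went the other way, with 33 members (66%) in LIF and 20 (40%) in RA, against 42.5% and 23.3% of all genes. The RXR library from RA was the shallower and had the shorter list. Both RXR lists were then limited to the 15224 strongest peaks, a setting chosen after the data were seen. With these, 20 members were bound in each state, against 22.4% of all genes in LIF and 23.3% in RA. The states shared 15 of them, a count that was not made over all genes. Nur77 had 16 members (32%) in LIF and 21 (42%) in RA, against 25.5% and 25.8% of all genes. H3.3 in RA had 9 members (18%), close to the 15.5% of all genes. The part of depth in these differences was not tested.

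**Figure D1:**
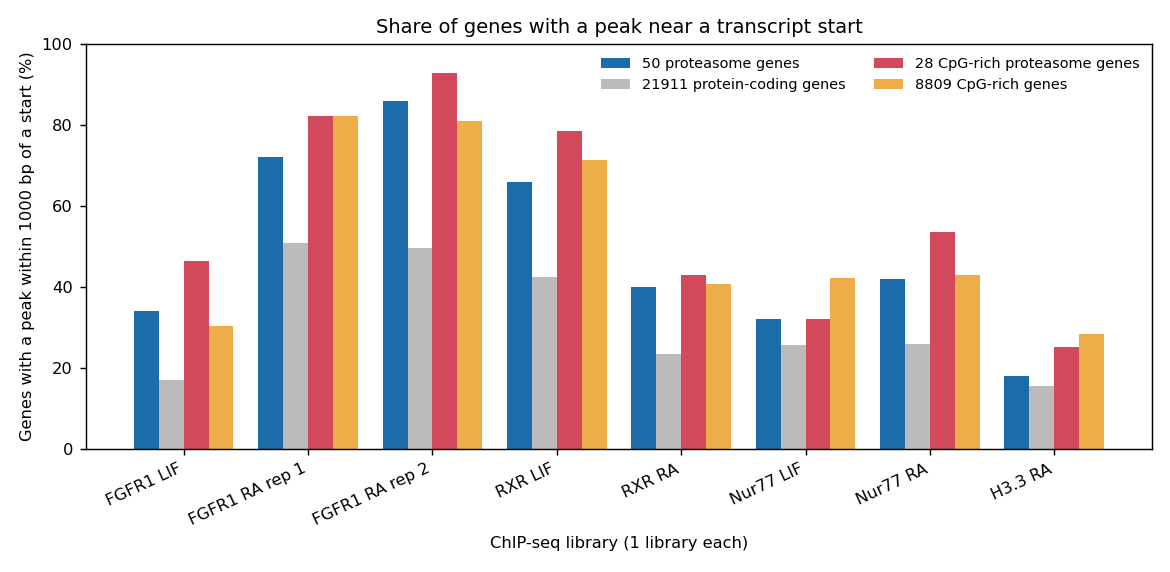
Share of genes with a peak within 1000 bp of a transcript start (y axis, %) in each of the 8 libraries (x axis), 1 library per cluster of bars. Blue bars are the 50 proteasome genes, grey bars all 21911 protein-coding genes, red bars the 28 proteasome genes with a CpG-rich main start and yellow bars all 8809 such genes. Blue stands above grey in every library, while red lies below yellow for Nur77 in LIF (32.1% and 42.2%), for H3.3 (25% and 28.2%) and, narrowly, for FGFR1 in RA replicate 1 (82.1% and 82.2%).

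Proteasome promoters are often CpG-rich, and the lists favoured such promoters in general. A CpG-rich main start had a GC content of at least 55% and an observed to expected CpG ratio of at least 0.6 within 500 bp on either side. It was found at 28 members (56%) and at 40.2% of all genes. Of these 28 members, FGFR1 bound 13 (46.4%) in LIF, 23 (82.1%) in replicate 1 and 26 (92.9%) in replicate 2, where 30.3%, 82.2% and 80.9% of the 8809 CpG-rich genes were bound. RXR bound 22 (78.6%) in LIF and 12 (42.9%) in RA, against 71.4% and 40.6%. Nur77 bound 9 (32.1%) in LIF and 15 (53.6%) in RA, against 42.2% and 42.8%, and H3.3 bound 7 (25%) against 28.2%. Beside CpG-rich genes the members thus stood highest for FGFR1 in LIF and lowest for Nur77 in LIF. Some of the 22 members without a CpG-rich main start were bound as well, for example Psma2, Psmb1, Psmd6 and Psmg4, which had FGFR1 in both RA replicates.

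Both RA replicates listed FGFR1 at 35 members (70%, against 39.5% of all genes), among them 23 of the 28 with a CpG-rich main start (82.1%, against 69.5% of such genes). Of these, 15 were also bound in LIF (30%, against 14.7%) and 20 were not (40%, against 24.8%). Replicate 2 alone listed 8 more members, namely Psmb3, Psmb6, Psmc1, Psmc3, Psmc4, Psmd1, Psme1 and Psme2, where 10.1% of all genes had a peak in that replicate alone. Replicate 1 alone listed Psmb11 (2% of members, against 11.3% of all genes). The 6 members with no FGFR1 peak in RA were Psma8, Psmb5, Psmb8, Psmc6, Psmd10 and Psme2b. With any listed peak of a gene counted, the peaks of the replicates overlapped at 34 of the 35 shared members, with a median gap of 44 bp between summits. The exception was Psmc3ip. Overlap and gap were not measured for the other genes bound in both replicates. Across the 35 members the −log10 p of the strongest peak had a Spearman rho of 0.512 between the replicates, and across the 8649 genes bound in both it was 0.279, given as a description since genes of a pair of libraries share depth and base composition.

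**Figure D2:**
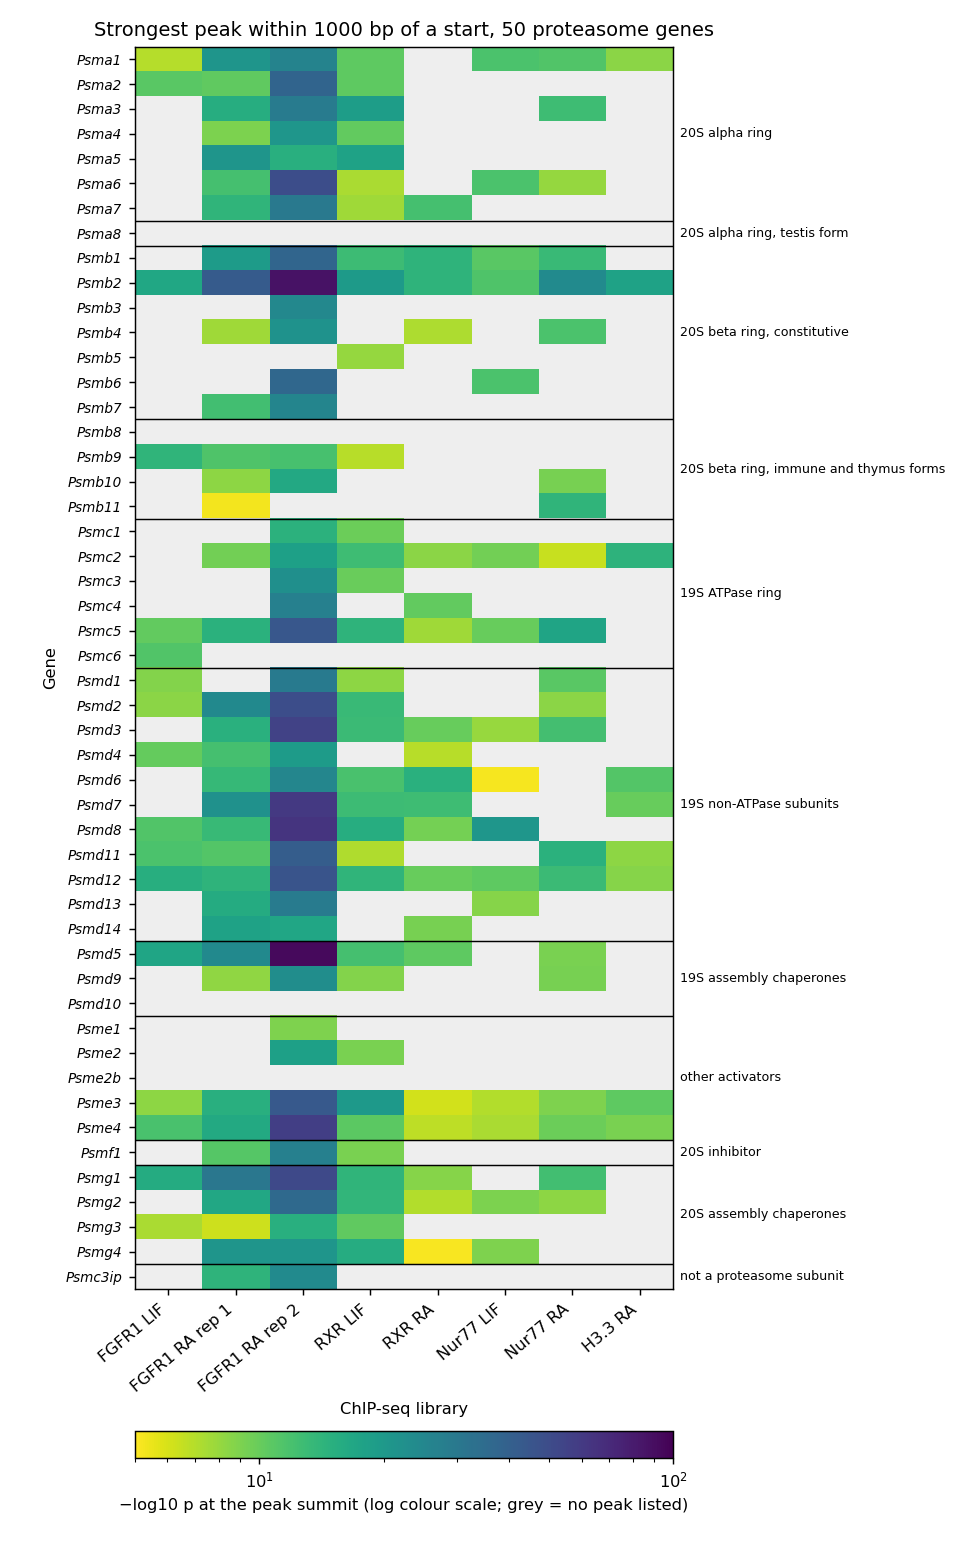
Strongest peak of each of the 50 proteasome genes (rows, grouped by role) in the 8 libraries (columns), coloured by the −log10 p at its summit on a log scale, with grey where no peak was listed. The row of Psmb2 is filled throughout and reaches 86.3 in FGFR1 RA replicate 2, while the rows of Psma8, Psmb8, Psmd10 and Psme2b are empty.

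All 7 constitutive alpha genes, Psma1 to Psma7, had FGFR1 in both RA replicates (against 39.5% of all genes) and RXR in LIF (against 42.5%). Only Psma1 and Psma2 had FGFR1 in LIF, and only Psma7 had RXR in RA. Some of these peaks lay nearer to a start of a neighbouring gene. They were the FGFR1 LIF peak of Psma2 (Mrpl32), the RXR peaks of Psma7 in both states (Ss18l1) and the RXR LIF peak of Psma4 (AY074887). With 10634 peaks per library, 3 alpha genes had FGFR1 in replicate 1 (Psma1, Psma3 and Psma5) and all 7 in replicate 2. The shares of all genes were then 18.1% and 43.1%. With the RXR lists at equal length the alpha genes with RXR were 4 in LIF (Psma1, Psma2, Psma3 and Psma5) and still Psma7 alone in RA. Of all genes, 22.4% and 23.3% then had RXR. At Psma1 the −log10 p of FGFR1 was 6.98 in LIF, 21.1 in replicate 1 and 26.3 in replicate 2. The folds over the local background were 5.17, 12 and 10.5. The LIF peak rested on 6 fragments at its summit, with an exact 95% Poisson interval of 2.20 to 13.1 that covers counting error only. At Psma2 the −log10 p was 10.8 in LIF, 10.4 in replicate 1 and 38.0 in replicate 2. The LIF and replicate 1 peaks of Psma2 did not overlap, and the replicate 2 peak of 38.0 also lay nearer to a start of Mrpl32. The strongest alpha peak in replicate 1 was at Psma1 and in replicate 2 at Psma6, with a −log10 p of 49.1. Psma6 has a second group of starts upstream, and its Nur77 peak in LIF lay there, 590 bp after such a start, apart from the FGFR1 peaks. The strongest RXR peak per alpha gene in LIF ranged in −log10 p from 7.33 at Psma6 to 18.9 at Psma3. Psma8, the form of the alpha ring used in the testis, had no peak in any library.

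The beta ring was less even. Of the 7 constitutive beta genes, FGFR1 bound 1 in LIF (14.3%), 4 in replicate 1 (57.1%) and 6 in replicate 2 (85.7%). The shares of all genes were 17%, 50.8% and 49.6%. RXR bound 3 in each state (42.9%), against 42.5% of all genes in LIF and 23.3% in RA. The catalytic subunits are encoded by Psmb5, Psmb6 and Psmb7, and none had FGFR1 in LIF. Psmb5, which encodes the chymotrypsin-like site, had a single peak in the series, of RXR in LIF with a −log10 p of 8.0. Psmb6 had FGFR1 in replicate 2 at 36.7 and Nur77 in LIF at 11.6, and Psmb7 had FGFR1 at 12.4 in replicate 1 and 25.6 in replicate 2. Psmb1 had FGFR1 in both replicates and RXR and Nur77 in both states. Its RXR peaks of LIF and RA did not overlap. The RXR peak in RA and the Nur77 peak in LIF lay nearer to a start of the neighbouring gene Tbp. So did the strongest peaks of FGFR1 in both replicates and of Nur77 in RA. Weaker peaks of FGFR1 in both replicates and of Nur77 in RA lay nearer to a start of Psmb1. Psmb3 had FGFR1 in replicate 2 only.

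Psmb2, a structural beta subunit, carried the strongest peaks of the ring in both replicates. Its FGFR1 −log10 p was 16.8 in LIF, 42.5 in replicate 1 and 86.3 in replicate 2. Those summits held 15 fragments (interval 8.40 to 24.7), 30 (20.2 to 42.8) and 85 (67.9 to 105.1), and the folds were 9.81, 20.2 and 19.6. RXR stood at 19.6 before RA and 14.3 after it. Nur77 stood at 11.4 and 24.0 in the same order, and H3.3 at 17.9. The FGFR1 and Nur77 values were thus higher in RA, RXR was higher in LIF, and within its library each peak stood at the 70.9 percentile or above of the strongest peaks per bound gene. The main start of Psmb2 had no other gene within 1000 bp.

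The beta subunits of the immunoproteasome (Psmb8, Psmb9 and Psmb10), which interferon induces, and of the thymus (Psmb11) were counted apart. FGFR1 bound 1 of these 4 in LIF (25%), 3 in replicate 1 (75%) and 2 in replicate 2 (50%), against 17%, 50.8% and 49.6% of all genes. Psmb9 had FGFR1 at a −log10 p of 14.1 in LIF, 11.4 in replicate 1 and 11.9 in replicate 2. The folds were 8.43, 7.05 and 5.77. It was the only member with FGFR1 in LIF and both replicates whose fold was below LIF in replicate 2. The start of Psmb9 is shared with Tap1, the peptide transporter gene, which lies head to head with it, and the strongest replicate 1 peak lay nearer to a start of Tap1. Psmb10 had FGFR1 in both replicates and Nur77 in RA. Psmb11 had Nur77 in RA at 14.0 and FGFR1 in replicate 1 at 5.27, the lowest among the members' strongest FGFR1 peaks. Psmb8 had no peak, and the closest lay 5072 bp away.

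Among the 6 ATPase genes FGFR1 bound 2 in LIF (33.3%), 2 in replicate 1 (33.3%) and 5 in replicate 2 (83.3%). The shares of all genes were 17%, 50.8% and 49.6%, so the ATPase genes stood below them in replicate 1. Psmc5 had a peak in every library except H3.3, and its FGFR1 −log10 p was 10.3 in LIF, 14.7 in replicate 1 and 44.2 in replicate 2. Psmc2, which shares its start region with Dnajc2, had a peak in every library except FGFR1 in LIF. All of these peaks lay nearer to a start of Dnajc2, so Psmc2 had no peak when only nearest starts were counted. Psmc1, Psmc3 and Psmc4 had FGFR1 in replicate 2 only. Psmc6 was the only member bound by FGFR1 in LIF and in neither RA replicate. Its sole peak had a −log10 p of 11.3, a fold of 7.44 and 9 fragments (interval 4.12 to 17.1), and its summit lay 43 bp after a start, in coding sequence.

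Of the 11 non-ATPase genes FGFR1 bound 6 in LIF (54.5%), 10 in replicate 1 (90.9%) and all 11 in replicate 2. The shares of all genes were 17%, 50.8% and 49.6%. With 10634 peaks per library these were 6, 4 and 11 non-ATPase genes, against 15.5%, 18.1% and 43.1% of all genes. Psmd1 and Psmd2, which encode the large scaffold subunits, had FGFR1 at a −log10 p of 8.70 and 8.45 in LIF. Psmd2 stood at 24.2 in replicate 1 and 49.2 in replicate 2, whereas Psmd1 had no peak in replicate 1 and 29.1 in replicate 2. Psmd4, a ubiquitin receptor, had 10.1 in LIF, 12.1 in replicate 1 and 19.3 in replicate 2. The replicate 1 peak of 12.1 lay at another place in Psmd4, apart from the LIF and replicate 2 peaks. A weaker replicate 1 peak, which overlapped the LIF peak of Psmd4, had 11.8. Psmd14, the deubiquitinase of the lid, had no FGFR1 in LIF and values of 17.7 and 17.1 in the replicates. Within their libraries these stood at the 77.1 and 27.8 percentiles. Psmd8 had 11.3, 13.3 and 63.6, Psmd11 had 11.7, 11.1 and 41.4, and Psmd12 had 15.3, 14.3 and 46.0 in LIF, replicate 1 and replicate 2. In these 3 lid genes the −log10 p of replicate 1 stayed near LIF and that of replicate 2 was far above it. The scale differed between the libraries, with medians over all bound genes of 10.6, 13.15 and 25.5 in the same order. As percentiles within each library, Psmd8 stood at 57.9, 51.5 and 93.3. Psmd11 stood at 62.1, 30.8 and 78.4, and Psmd12 at 85.1, 59.4 and 83.3. At Psmd11, however, the LIF and replicate 1 peaks did not overlap. Psmd3, Psmd6, Psmd7 and Psmd13 had FGFR1 in both replicates only. Psmd7 stood at 22.1 in replicate 1, next after Psmd2, and at 60.9 in replicate 2, next after Psmd8.

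The chaperones that assemble the complexes were bound in most cases. All 4 core chaperone genes, Psmg1 to Psmg4, had FGFR1 in both RA replicates (against 39.5% of all genes) and RXR in LIF (against 42.5%). Psmg1 had FGFR1 at a −log10 p of 15.9 in LIF, 30.6 in replicate 1 and 51.5 in replicate 2, and its fold of 15.4 in replicate 1 was the second highest after Psmb2. Psmg3 had 7.29, 6.27 and 15.1 and was among the weakest. Of the 19S assembly chaperones, Psmd5 had the strongest FGFR1 peak of any member in LIF (17.2, on 17 fragments, interval 9.90 to 27.2) and in replicate 2 (92.5, on 105 fragments, interval 85.9 to 127.1), with 24.1 in replicate 1. Its summits in the 3 FGFR1 libraries lay 2, 30 and 31 bp after a start. Psmd9 had FGFR1 in both replicates. Psmd10, the X-linked gene of the oncoprotein gankyrin, had no peak, and the closest lay 291321 bp away.

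The activator genes split. Psme3, which encodes the nuclear activator, and Psme4, whose product is tied to acetylated histones and DNA repair, were bound in all 8 libraries. The FGFR1 −log10 p at Psme3 was 8.35 in LIF, 15.1 in replicate 1 and 43.1 in replicate 2, and at Psme4 it was 11.8, 16.2 and 57.1. The LIF and replicate 1 peaks of Psme4 did not overlap. The RXR peak of Psme3 in LIF was the strongest RXR peak of any member, at 19.9, while RXR in RA stood at 6.13. That RA peak lay at another place, where the LIF list had a peak of 6.79. Psme1 and Psme2, the interferon-induced activator of the immunoproteasome, had FGFR1 in replicate 2 only, at 8.87 and 18.3. The peak counted for Psme2 lay 650 bp upstream, nearer to a start of the neighbouring gene Rnf31. Psme2b, a single-exon copy of Psme2 with 99.37% identity over 794 aligned positions, had no peak. Reads with more than a single place in the genome had been left out, and their part in this was not tested. Psmf1, the inhibitor of the core, had FGFR1 in both replicates and RXR in LIF. Psmc3ip had FGFR1 in both replicates and no other factor, but at separate places, with the summit at 429 bp from a start in replicate 1 and at -183 bp, upstream, in replicate 2.

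**Figure D3:**
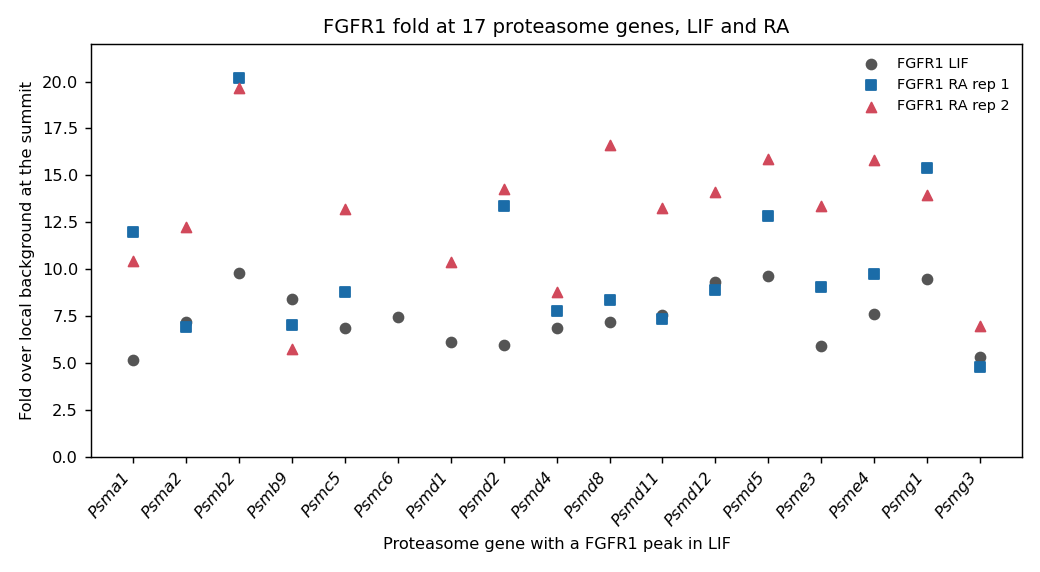
Fold over the local background at the summit of the strongest FGFR1 peak (y axis) for the 17 proteasome genes with a FGFR1 peak in LIF (x axis). Circles are LIF, squares RA replicate 1 and triangles RA replicate 2, and a missing symbol means that no peak was listed. Psmb2 is the highest in both replicates, at 20.2 and 19.6, and Psmb9 is the gene with both RA values that lie below LIF.

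Among the members bound in LIF, FGFR1 folds were mostly higher in RA. The strongest peaks per gene were compared, and these did not always lie at the same place. With any listed peak of a gene counted, FGFR1 peaks of LIF and replicate 1 overlapped at 12 of 15 shared members. Those of LIF and replicate 2 overlapped at all 16, RXR peaks of LIF and RA at 14 of 16 and Nur77 peaks at 9 of 11. The strongest peaks were apart at further members. These were Psmb9 and Psmd4 for FGFR1 in replicate 1, Psme3 and Psme4 for RXR, and Psmd3 for Nur77. Overlap was not counted over all genes. Replicate 1 exceeded LIF at 10 of 15 shared members (66.7%, against 82.0% of all genes shared by these libraries), with medians of 7.20 in LIF and 8.88 in RA. Replicate 2 exceeded LIF at 15 of 16 (93.8%, against 89.8%), with medians of 7.18 and 13.3. The RXR fold was higher in RA at 4 of 16 shared members (25%, against 44.2% of all genes), with medians of 7.84 in LIF and 6.57 in RA. The Nur77 fold was higher in RA at 7 of 11 (63.6%, against 59.9%). The fold has a pseudocount of 1 in both terms, so it rises with depth, and the libraries differed in depth.

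The receptors were then counted at FGFR1-bound members, per gene over all its starts and not per shared site. In LIF the FGFR1 and Nur77 peaks overlapped at 4 of the 7 members with both, not at Psmd8, Psmd12 and Psme4. The FGFR1 and RXR peaks in LIF overlapped at 14 of 15. In LIF 7 of 17 also had RXR and Nur77 (41.2%, against 55.9% of all FGFR1-bound genes), 8 had RXR only (47.1%, against 28.5%), and Psmc6 and Psmd4 had neither (11.8%, against 10.5%). In RA the same 12 members had all 3 proteins with either replicate (33.3% and 27.9% of those bound in replicates 1 and 2, against 25.7% and 23%). FGFR1 was without either receptor at 9 members in replicate 1 (25%, against 38.5%) and at 15 in replicate 2 (34.9%, against 44.4%). Conversely, 19 of the 20 RXR members in RA (95%, against 90.9% of all RXR-bound genes) had FGFR1 in replicate 1 and all 20 had it in replicate 2 (against 80.0%). RXR was listed in both states at 16 members (32%, against 19.4%), in LIF alone at 17 (34%, against 23.1%) and in RA alone at 4 (8%, against 3.94%), namely Psmb4, Psmc4, Psmd4 and Psmd14. At Psmb1 and Psmd3, among those 16, the RXR peaks of LIF and RA did not overlap. At 6 members, Psma3, Psma4, Psma5, Psma6, Psmd9 and Psmf1, FGFR1 was listed in both RA replicates and not in LIF, while RXR was listed in LIF only, the pattern of 12% of members and 10% of all genes. Another 8 had the same FGFR1 pattern and RXR in both states (16%, against 7.55%). Nur77 was listed in both states at 11 members (22%, against 14%), in LIF alone at 5 (10%, against 11.4%) and in RA alone at 10 (20%, against 11.8%). At Psma6 and Psme4, among those 11, the Nur77 peaks of LIF and RA did not overlap.

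H3.3 peaks were few and fell where FGFR1 was also found. The 9 members were Psma1, Psmb2, Psmc2, Psmd6, Psmd7, Psmd11, Psmd12, Psme3 and Psme4. The H3.3 peak counted for Psmc2 lay nearer to a start of Dnajc2. All 9 had FGFR1 in both RA replicates and every H3.3 peak overlapped a FGFR1 peak of either replicate. Of all genes with H3.3, 94.5% had FGFR1 in replicate 1 and 80.8% in replicate 2. The H3.3 −log10 p ranged from 8.28 at Psmd11 to 17.9 at Psmb2, and 8 of the 9 peaks had their summits within 250 bp of a start.

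The 4 members with a peak in all 8 libraries (8%, against 2.9% of all genes) all had a CpG-rich main start. They were 14.3% of the CpG-rich members, against 5.82% of CpG-rich genes. At Psmd12 the −log10 p was 15.3, 14.3 and 46.0 for FGFR1, 14.1 and 10.1 for RXR, 10.5 and 12.9 for Nur77, and 8.60 for H3.3. At Psme4, RXR stood at 10.6 and 6.74, Nur77 at 7.33 and 9.79, and H3.3 at 9.17. The LIF and RA peaks with these RXR values did not overlap, nor did those with these Nur77 values. At Psme3, Nur77 stood at 7.03 and 8.95 and H3.3 at 10.5. In the pairs for RXR and Nur77 the LIF value comes first, and the weakest of these peaks rested on 5 or 6 fragments. Psmb2 was the member among these whose peaks all reached a −log10 p of 10. The 4 members with no peak (8%, against 34.5% of all genes) were Psma8, Psmb8, Psmd10 and Psme2b. None of them had a CpG-rich main start, whereas 3.68% of CpG-rich genes had no peak. In between, 15 members had peaks in 6 or more libraries, the 4 above included, a count that was not made over all genes.

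Peaks centred on the starts. Over all peaks counted for members, 94.4% of FGFR1 summits in LIF lay within 250 bp of a start, 80.8% in replicate 1 and 93.9% in replicate 2. For peaks near all genes these shares were 77.4%, 70.4% and 82.5%. RXR had 86.0% in LIF and 95% in RA (68.9% and 74.0% near all genes), Nur77 75% and 82.6% (66.6% and 67.2%), and H3.3 88.9% (72.4%). Median summit positions ranged from 2.5 bp after the start for FGFR1 in replicate 1 to 62 bp after it for H3.3. Of the member peaks in FGFR1 RA replicate 2, 12 had their summits in coding exons, 19 in non-coding parts of exons, 5 in introns and 13 outside the gene. Among bound genes ranked by −log10 p, the members' median percentile ranged from 40.3 for RXR in RA to 65.5 for RXR in LIF.

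**Figure D4:**
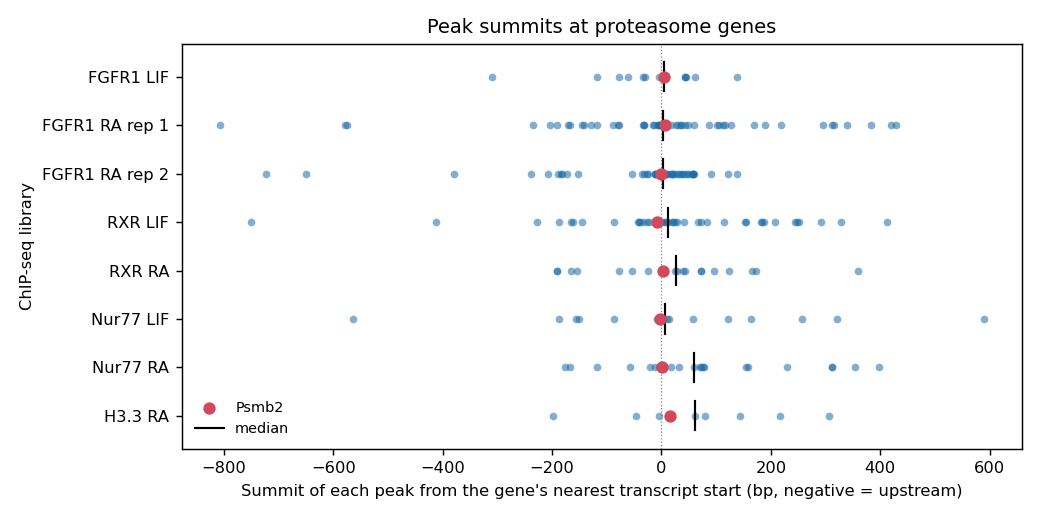
Distance of each peak summit from the gene's nearest transcript start (x axis, bp, negative upstream) in each library (y axis). Every point is a peak counted for a proteasome gene, red points are Psmb2 and black bars are medians. Most points lie within 250 bp of the start, and the Psmb2 points stay between 9 bp before and 15 bp after it.

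Motif words were searched on both strands from 250 bp before to 50 bp after the main start. ETS (CCGGAAGT) was present at 8 members (16%, against 4.99% of all genes), and at 14.3% of CpG-rich members against 7.91% of CpG-rich genes. The 8 members were Psma8, Psmc1, Psmc2, Psmd6, Psmd12, Psme3, Psme4 and Psmg3. Of these, 3 were among the 4 members with a peak in all 8 libraries, but Psma8 had no peak, and of the 636 genes bound in all 8 libraries 9.75% had the word. YY1 (AAGATGGCG) was at Psmb6, Psmc5, Psmd7 and Psmd11 (8%, against 1.87%). NRF1 (GCGCNTGCG) was at 7 members (14%, against 8.69%), at 14.3% of CpG-rich members against 16.1% of CpG-rich genes, and at 29.4% of the genes bound in all 8 libraries. CRE (TGACGTCA) was at Psmb2 and Psmb8 (4%, against 2.49%), the member with the strongest FGFR1 peak in replicate 1 and a member with none. The ARE word (TGACNNNGC), the core of the antioxidant response element, was at Psmb2, Psmb5, Psmb6, Psmc6, Psmd7, Psmd9 and Psmd12, 14% against 12.6% of all genes. The core hexamer of nuclear receptor sites (AGGTCA) was at 11 members (22%, against 14.4%), and the longer NBRE word of Nur77 (AAAGGTCA, which contains it) was at none, against 1.21%. CACGTG (E-box) was at 7 members (14%, against 7.77%), CCAAT (NF-Y) at 18 (36%, against 38.6%) and GGGCGG (SP/KLF) at 30 (60%, against 45.4%). Among CpG-rich starts the SP/KLF word was the less frequent in members, 57.1% against 77% of genes. ARE and receptor words can overlap, and a match is a description of the letters only.

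Other genes of the ubiquitin-proteasome system were also bound by FGFR1 in RA. Of 27 listed, 26 were found in the annotation. FGFR1 was at 15 of them in LIF (57.7%, against 17% of all genes), 24 in replicate 1 (92.3%, against 50.8%) and all 26 in replicate 2 (against 49.6%). RXR was at 22 of them before RA (84.6%, against 42.5%) and 11 after it (42.3%, against 23.3%). Nur77 was at 13 (50%, against 25.5%) and 16 (61.5%, against 25.8%), and H3.3 at 9 (34.6%, against 15.5%). Ube3c, a ubiquitin ligase of the proteasome, and Hsf1, the heat shock regulator, had a peak in all 8 libraries. Among the 4 listed regulators of proteasome genes, Nfe2l1, Nfe2l2 and Hsf1 had FGFR1 in all 3 of its libraries and Ngly1, which processes the Nfe2l1 protein, had it in RA only. The genes with FGFR1 in LIF were Adrm1, Uchl5, Usp14, Akirin2, Zfand5, Ube3c, Ubb, Rps27a, Uba6, Ubqln1, Ddi2, Nploc4, Nfe2l1, Nfe2l2 and Hsf1, which include the polyubiquitin gene Ubb and the proteasome-bound deubiquitinases Uchl5 and Usp14. No listed gene was without a peak in every library.

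Several members share their promoters with other genes, so a peak there cannot be assigned to the member alone. A start of another protein-coding gene lay within 1000 bp of a member's start at Psma2 (Mrpl32), Psma7 (Ss18l1), Psmb1 (Tbp), Psmb9 (Tap1), Psmc2 (Dnajc2), Psmc5 (Ftsj3), Psmd5 (Cutal), Psmd13 (Sirt3), Psme2 (Rnf31) and Psmg2 (Cep76), among 14 members with such a neighbour. When only peaks whose nearest start was the member's own were counted, FGFR1 was at 16 members in LIF, 35 in replicate 1 and 41 in replicate 2, and RXR at 28 in LIF.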

How the data were processed

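Groups were read from the sample titles. The authors aligned reads to mm10 with Bowtie 1.0, keeping uniquely placed reads, and called peaks per library with MACS2 (p limit 1e-05, no control named). In the deposited lists the fold is the ratio of the summit pileup to the local background with a pseudocount of 1, the −log10 p and −log10 q belong to the summit, and the deposited score is the −log10 p times 10. The score was not analysed further. Summit fragments were solved from the fold and −log10 p (tolerance 0.002), a step tested on simulated data. Genes were 21911 protein-coding names outside the mitochondrial genome (GENCODE M21, GRCm38), and motifs and sequences were read from the RefSeq copy of that assembly. With 6 of 7 groups holding 1 library, no test and no p-value between groups was computed. The members, the role lists and the alternatives were chosen with earlier results of these data known. Some genes of the wider ubiquitin system are not reported here. Every member was named or counted in its role group. Values per library were given for members with FGFR1 in LIF, with peaks in all libraries and the strongest in each role group, and other members were named with values where a sentence turned on them, after those were seen. Python 3.11.15, pandas 2.3.3 and pysam 0.24.0 were used. Intervals are exact Poisson limits at 95%. Alternatives were limits on the −log10 p (10), the −log10 q (2) or the fold (5), equal numbers of peaks, windows of 500 bp or from 5000 bp upstream, other overlap rules, protein-coding transcripts only, nearest starts, peaks without alternating tracts and single replicates.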

Additional observations from a re-analysis of the deposited data

Results flagged for a closer look

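FGFR1 and RXR moved in opposite directions between LIF and RA by the number of proteasome genes listed. FGFR1 had 19 more members in RA replicate 1 and 26 more in replicate 2 than in LIF, while the RXR difference, RA minus LIF, was -13. Nur77 had 5 more members in RA, also opposite to RXR at -13. The differences between the proteins were not tested, since RXR and Nur77 had 1 library per state, and with equal numbers of peaks within each protein RXR had 20 members in either state. The RXR library from RA had 0.264 times the background density of that from LIF, the Nur77 library 0.767 times and the FGFR1 replicates 1.54 and 2.50 times, and the part of depth was not tested. Groups of 1 or 2 libraries allowed no search for a library far from the rest of its group.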

How the results depend on the processing

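The differences between RA and LIF, for FGFR1 taken with the mean of its replicates, kept their direction under all alternatives that were run, except that the RXR difference became 0 with equal numbers of peaks within each protein. Under a −log10 p of at least 10, the members bound were 8 for RXR in RA (10.8% of all genes), 8 and 12 for Nur77 in LIF and RA (12.3% and 14%), and 5 for H3.3 (7.17%), and 1 member (Psmb2) had a peak in all 8 libraries. With a fold of at least 5, 2 members did (Psmb2 and Psmd12). With the 10634 strongest peaks of each library, FGFR1 replicate 1 had 15 members, both replicates shared 15, RXR had 17 and 9 (14.9% and 12.7% of all genes), Nur77 had 7 and 9 (10.5% and 8.36%), and 1 member was in all 8. With equal numbers within each protein, chosen after the data were seen, replicate 1 had 15 against 17 in LIF (18.9% and 17% of all genes), the reverse of the order with full lists, both replicates shared 15 and RXR in LIF had 20. Counts of members shared between libraries were not made over all genes under these settings. The FGFR1 mean of 39.5 members in RA was 43 without replicate 1 and 36 without replicate 2. The other settings (a −log10 q of at least 2, the other windows, overlap rules, transcript choice, nearest starts and peaks without tracts) left every count within 1.5 times its value. No paired analysis was possible because only FGFR1 in RA had more than 1 library. Peaks of few fragments limit what a missing peak means.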

Other observations

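Peaks also lay inside the genes of 14 members, away from their starts. There were 43 such peaks over the 8 libraries, 17 of which held an alternating tract of at least 20 bp. None of them was a FGFR1 peak of the LIF library. FGFR1 replicate 1 had 14 and replicate 2 had 2, RXR had 7 before RA and 5 after it, Nur77 5 and 9, and H3.3 1. Such peaks were not counted over all genes. The lists also differed in length, with 46137 peaks in FGFR1 replicate 1 and 14082 in replicate 2, and the part of this was not tested. The strongest place was within Psmd11, which encodes a lid subunit, at chr11:80465470-80465675 in the H3.3 list. The −log10 p there was 46.8 for H3.3, 79.3 and 41.2 for Nur77 in RA and LIF, 41.1 and 29.5 for RXR in RA and LIF, and 20.7 for FGFR1 in replicate 1. FGFR1 in LIF and in replicate 2 had no peak there, and all 6 peaks held a tract. A place inside Psma2 without a tract, around chr13:14630065-14630557, had FGFR1 in both RA replicates (15.1 and 27.8), RXR in both states and Nur77 in RA.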
